A study of Bos taurus with 11 samples.

Results

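Small RNA sequencing of mammary biopsies from 5 Holstein and 6 Montbéliarde cows was searched for the miRNAs of leukocytes. They were taken by identifier, as *bta-miR-142-5p*, *bta-miR-142-3p*, *bta-miR-150*, *bta-miR-155* and *bta-miR-223*, from a list made with earlier results of these data known. Each of the 5 was found among the 796 miRNAs of the table. All 5 were also among the 550 miRNAs in which the breeds were compared, those whose counts over the 11 libraries came to 10 or more. Each library came from a biopsy of the middle of a rear gland of 1 cow in mid-lactation, and the cows of both breeds received the same diet of forage and concentrate. A further Holstein cow with mastitis had been left out by the authors, and the udder health of the remaining cows is not given in the sources used here. The breeds are the only groups, with no treatment in either. Libraries are named by breed and by the tag in their title.

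A lactating udder contains resident macrophages and lymphocytes between and beneath its secretory cells, and neutrophils cross into the milk when the gland is infected. Both arms of the *miR-142* hairpin are made in nearly all cells of the blood lineage. *miR-150* is abundant in mature B and T lymphocytes, *miR-155* is induced when lymphocytes and macrophages are activated, and *miR-223* is the leading miRNA of neutrophils and other myeloid cells. In a biopsy of whole tissue, fewer cells of a type and less RNA per cell cannot be told apart.

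The RefSeq annotation of ARS-UCD2.0, a later assembly than that of the authors, contained a gene for each of the 4 hairpins, and its coordinates are not given for that reason. *MIR142* overlaps *TSPOAP1* and lies beside *MPO*, which encodes the myeloperoxidase of neutrophil granules. *MIR223* overlaps *VSIG4*, a complement receptor gene of tissue macrophages. *MIR155* lies between *MRPL39* and *NCAM2*. Entries with a constant ratio of counts to a leukocyte miRNA were sought among 356 miRNAs with a mean normalized read count of at least 10. Of these, the ones counted in every library were compared, and none had such a ratio. Rarer miRNAs were not examined, and a partial sharing of reads would not be seen in this way.

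Holstein libraries held 7431936 to 16808976 counted reads, and Montbéliarde libraries 6087865 to 11395785. As a check of the tissue, 10 epithelial miRNAs, led by *miR-141*, were read in all libraries. Their summed normalized read counts were 411090 to 511218 for Holstein cows and 214258 to 515816 for Montbéliarde cows. A list of 6 stromal and smooth muscle miRNAs, led by *miR-143*, summed to 1513729 at the lowest and 2305716 at the highest in the Holstein cows, and to 1928358 and 3870328 in the Montbéliarde cows. On average *miR-141* made up 60.8% of the epithelial sum and *miR-143* 99.3% of the stromal sum. The stromal sum is thus nearly that of *miR-143* alone. Library CNLX15 had the highest stromal sum, and CNLX21 and CNLX15 had the lowest epithelial sums, 214258 and 218658. Of 356 miRNAs with a mean normalized read count of at least 10, 22 had their outlying highest Montbéliarde value in CNLX15, so results that rest on this library are also given without it. CNLX23 came next, with the outlying highest value for 14 and the outlying lowest for 3.

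Of the counted reads, the 5 leukocyte miRNAs made up 0.267% ± 0.0765 (SD, n = 6) in the Montbéliarde cows, against 0.233% ± 0.0477 (SD, n = 5) for the Holstein cows. The 5p arm of *miR-142* held 86.9% of their reads on average and between 84.0 and 90.7% in single libraries. Ranked by mean normalized read count among all miRNAs of the table, *miR-142-5p* was at rank 40, *miR-155* at rank 112, *miR-150* at rank 116, *miR-142-3p* at rank 118 and *miR-223* at rank 186. None was near zero, since the lowest raw count of any of them in any library was 38, for *miR-223* in CNLX13.

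**Figure D1:**
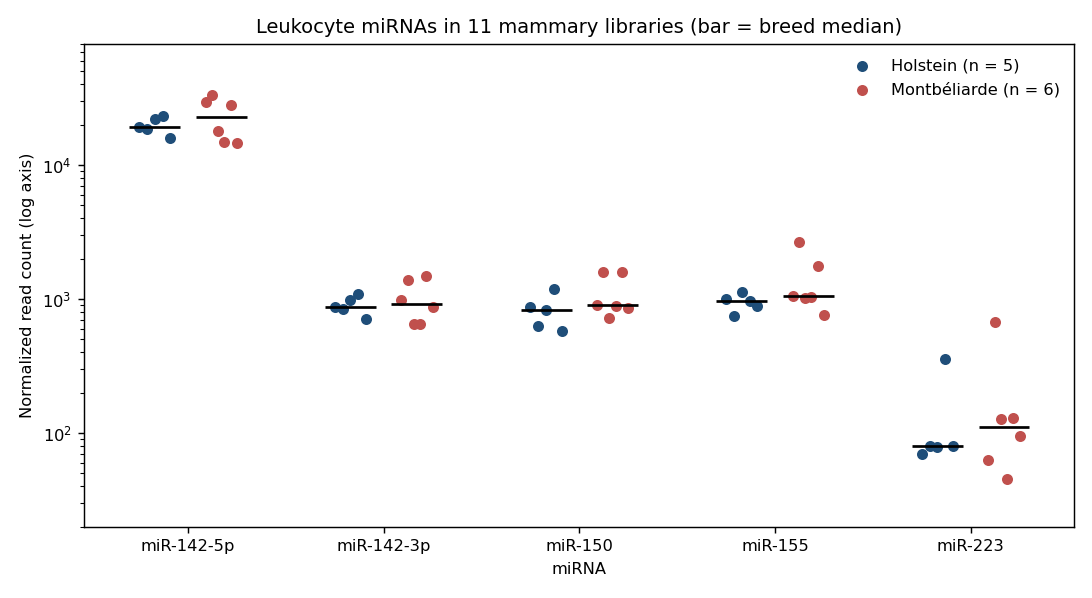
Normalized read count (log axis) of each leukocyte miRNA in each of 5 Holstein (blue) and 6 Montbéliarde (red) libraries, with a bar at the breed median. The breeds overlap for each miRNA, and *miR-223* has 1 high library in each breed, at 357 and 680.

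The level of *miR-142-5p*, the general miRNA of blood-derived cells, was 19259 in CNLX1, 18539 in CNLX3, 22150 in CNLX5, 23350 in CNLX7 and 15780 in CNLX9, the Holstein libraries, in normalized read counts. In Montbéliarde the lowest value was 14646, the median 23013 and the highest 33110. The Montbéliarde range enclosed the Holstein range on both sides, with 3 libraries above it and 2 below it. The Montbéliarde mean was 23011 ± 8148 (SD, n = 6), against 19815 ± 3007 (SD, n = 5) for Holstein. In the edgeR quasi-likelihood fit, with p-values adjusted by Benjamini-Hochberg over the 550 miRNAs, the log2 fold change of Montbéliarde over Holstein was 0.20 (standard error 0.23, 95% interval -0.29 to 0.69, adjusted p = 0.730).

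Its partner arm *miR-142-3p* was at 874, 838, 979, 1084 and 708 normalized read counts in the Holstein libraries CNLX1, CNLX3, CNLX5, CNLX7 and CNLX9. The Montbéliarde values ran from 654 over a median of 925 to 1479 in CNLX21. Of the Montbéliarde libraries, 2 lay above and 2 below all Holstein libraries. The log2 fold change was 0.16 (standard error 0.24, 95% interval -0.36 to 0.68, edgeR adjusted p = 0.811), smaller than its error.

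For the lymphocyte miRNA *miR-150*, the Holstein libraries in the same order had 880, 633, 836, 1190 and 581 normalized read counts. The Montbéliarde libraries had at least 727, a median of 899 and at most 1597. CNLX21 and CNLX15, at 1597 and 1596, were above every Holstein library, and no Montbéliarde library was below the Holstein range. The means were 824 ± 241 (SD, n = 5) and 1097 ± 392 (SD, n = 6). The log2 fold change was 0.40 (standard error 0.27, 95% interval -0.17 to 0.98, edgeR adjusted p = 0.491).

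The activation-induced *miR-155* was at 1003, 742, 1122, 971 and 883 normalized read counts in the Holstein libraries. In Montbéliarde the lowest value was 758, the median 1045 and the highest 2644. CNLX15 at 2644 and CNLX21 at 1767 stood above all Holstein libraries, and the other 4 Montbéliarde libraries lay inside the Holstein range. The means were 944 ± 142 (SD, n = 5) and 1378 ± 706 (SD, n = 6), with a log2 fold change of 0.53 (standard error 0.28, 95% interval -0.08 to 1.14, edgeR adjusted p = 0.396). Without CNLX15 the log2 fold change was 0.34 and its adjusted p 0.520 in the same edgeR fit.

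The myeloid *miR-223* was the least abundant and the most variable. Its Holstein values were 69.4 in CNLX1, 79.8 in CNLX3, 78.4 in CNLX5, 357 in CNLX7 and 79.5 in CNLX9. The Montbéliarde values were 63.3 in CNLX13, 680 in CNLX15, 128 in CNLX17, 45.5 in CNLX19, 130 in CNLX21 and 95.7 in CNLX23. Thus a single cow in each breed was far above the others, and the remaining 9 libraries were between 45.5 and 130. CNLX7 was 4.52 times the median of the other Holstein libraries, and 1 of the 356 miRNAs with a mean of at least 10 had a larger such ratio in that library. CNLX15 was 7.10 times the median of the other Montbéliarde libraries, a ratio exceeded by 2 of the 356 miRNAs.

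*miR-223* averaged 190 ± 242 (SD, n = 6) over the Montbéliarde cows, against 133 ± 125 (SD, n = 5) over the Holstein cows. Its log2 fold change was 0.44 (standard error 0.67, 95% interval -0.99 to 1.87, edgeR adjusted p = 0.811). These values rested on the high library of each breed. The Holstein mean was 76.8 without CNLX7, and the log2 fold change was then 1.28 (edgeR adjusted p = 0.398). The Montbéliarde mean was 92.5 without CNLX15, and the log2 fold change turned to -0.46 (edgeR adjusted p = 0.740). With both libraries left out, an alternative chosen after seeing the data, it was 0.28 (edgeR adjusted p = 0.770).

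In the high libraries the other leukocyte miRNAs did not all stand out in the same way. In CNLX7, *miR-150* was 1.62 times the median of the other Holstein libraries, *miR-142-3p* 1.27 times, *miR-142-5p* 1.24 times and *miR-155* 1.03 times. In CNLX15, *miR-155* was 2.54 times the median of the other Montbéliarde libraries, *miR-142-5p* 1.85 times, *miR-150* 1.78 times and *miR-142-3p* 1.61 times. The ratio of *miR-223* to *miR-150* within a library, which does not depend on scaling, was 30.0% in CNLX7 and 42.6% in CNLX15. Its median over the 11 libraries was 11.1% and its lowest value 5.09%, in CNLX19.

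**Figure D2:**
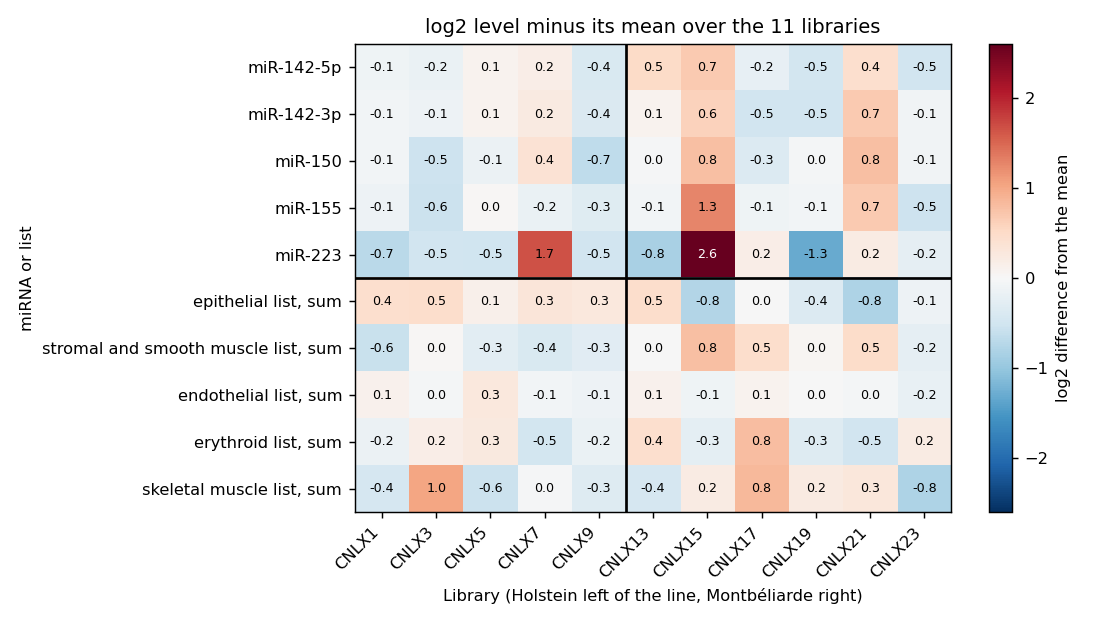
Log2 level of each leukocyte miRNA and of the summed normalized read counts of 5 cell type lists in each library, minus its mean over the 11 libraries (red above, blue below). *miR-223* is high in CNLX7 and CNLX15, and the other leukocyte miRNAs are high in CNLX15 and CNLX21, where the epithelial sum is lowest. *miR-142-5p* is also high in CNLX13 (0.50, beside 0.44 in CNLX21), where the epithelial sum is highest (0.47).

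No leukocyte miRNA differed between the breeds at an adjusted p of at most 0.05, against 0.364% of the 550 miRNAs tested with edgeR. None did by limma-voom or by DESeq2, which called 4.33% of the 462 miRNAs it gave an adjusted p. The unadjusted edgeR p was above 0.05 for all 5, and it was 0.05 or less for 14.2% of the tested miRNAs. The breeds overlapped for all 5, and they did not overlap for 2% of the tested miRNAs. With shares this small, finding none among 5 miRNAs does not set them apart from the others. Exact permutation tests of the log2 levels, two-sided, gave p = 0.576 for *miR-142-5p*, 0.684 for *miR-142-3p*, 0.199 for *miR-150*, 0.225 for *miR-155* and 0.749 for *miR-223*. The log2 fold change was above 0 for 5 of 5, against 52.4% of the tested miRNAs, with a median of 0.40 beside 0.03 for all tested miRNAs. These signs are not independent of each other, because the 5 miRNAs were read in the same libraries, and that of *miR-223* depended on CNLX15. On the fold scale, the 95% intervals ran from 0.820 to 1.62 for *miR-142-5p*, from 0.779 to 1.60 for *miR-142-3p*, from 0.888 to 1.97 for *miR-150*, from 0.949 to 2.21 for *miR-155* and from 0.503 to 3.66 for *miR-223*, so that differences of these sizes were not excluded by 5 and 6 cows.

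Over all libraries, the spread between cows was wider in Montbéliarde for each of them. For *miR-223* the direction depended on which high library was left out. The coefficient of variation was 15.2% in Holstein and 35.4% in Montbéliarde for *miR-142-5p*, 15.9% and 35.6% for *miR-142-3p*, 29.3% and 35.7% for *miR-150*, 15.0% and 51.2% for *miR-155*, and 94.4% and 127% for *miR-223*. Without CNLX15 the Montbéliarde values were 40.9% for *miR-223*, below that of Holstein, and 33.6% for *miR-155*, while those of the other 3 were between 34.4 and 36.5%. Without CNLX7 the Holstein value of *miR-223* was 6.50%, so with both high libraries left out Montbéliarde was again the wider. The libraries left out were chosen after seeing the data, and these differences in spread were not tested. A wider Montbéliarde spread was also seen outside these 5, and its share over all tested miRNAs was not computed. For *miR-21-5p* the SD was 87310 in Montbéliarde, against 18627 in Holstein, at means of 238563 and 239401. The summed arms of *miR-126* went the other way, with an SD of 21754 in Montbéliarde and 32583 in Holstein, at means of 270128 and 280613. Within breeds, the standard deviation on the log2 scale was 1.20 for *miR-223*, larger than for 96.9% of the 356 miRNAs with a mean of at least 10. For the other 4 it was between 0.41 and 0.51, beside a median of 0.41 over those 356.

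The levels of the 5 miRNAs were also set in order, as reads, since adaptor ligation differs between sequences and molecules were not counted. Within each of the 11 libraries, *miR-142-5p* had more reads than *miR-155*, by a mean of 18.9 times (adjusted p = 0.00195, exact sign-flip permutation test, two-sided, over 4 neighbouring pairs). *miR-155* exceeded *miR-150* in 9 of 11 libraries, by 1.19 times on average (adjusted p = 0.0352, same exact test). This call was lost when any one of 9 libraries was left out, CNLX15 among them (adjusted p = 0.0703), and kept without CNLX7 or CNLX23. *miR-150* and *miR-142-3p* could not be placed in order, with a mean log2 ratio of 0.00066 and 6 of 11 libraries on the side of *miR-150* (adjusted p = 0.997, same exact test). *miR-142-3p* in turn was above *miR-223* in 11 of 11 libraries, by 8.17 times on average (adjusted p = 0.00195, same exact test).

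Both arms of *miR-142* are cut from a single hairpin, so that their ratio within a library is free of the scaling between libraries. Of the reads of both arms, 95.7% ± 0.0746 (SD, n = 5) were of the 5p arm in the Holstein cows, against 95.7% ± 0.882 (SD, n = 6) for the Montbéliarde cows. The means differed by 0.0605 percentage points (two-sided exact permutation test over the cows, p = 0.887), less than the Montbéliarde spread, and this sign turned without CNLX13 or CNLX17.

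The 5 Holstein libraries fell between 95.6 and 95.8%, and their Wilson 95% intervals, which cover counting error only, overlapped. The Montbéliarde libraries extended further on both sides. In CNLX13 the share was 96.8% (Wilson 95% interval 96.5 to 97.0%), and in CNLX23 it was 94.4% (94.1 to 94.7%). With 1 library per cow and PCR copies not told apart, these intervals leave out the error of library preparation, and a difference between single cows was not tested. As a ratio of arms, the 5p reads were 29.9 times the 3p reads in CNLX13 and 16.9 times in CNLX23, and between 21.5 and 22.6 times in the Holstein libraries. How reads with shifted ends were assigned to the arms is not given in the sources used here.

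**Figure D3:**
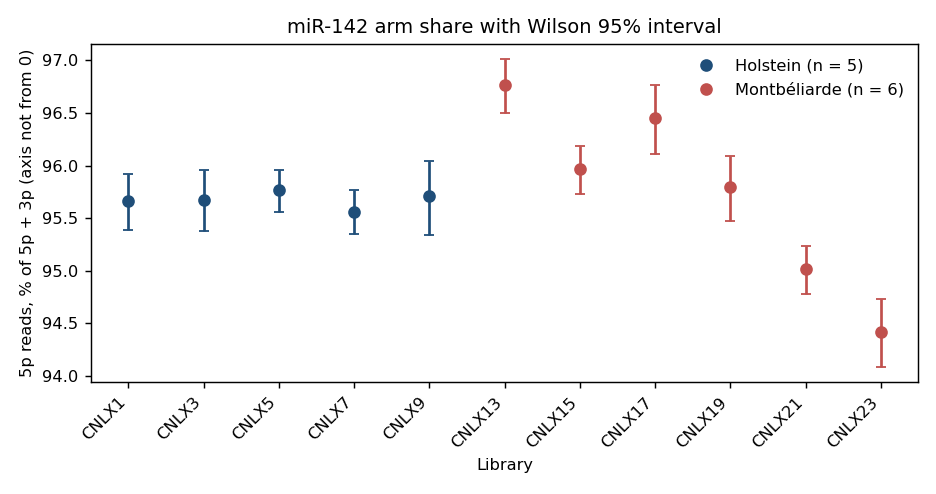
Share of the 5p arm among the *miR-142* reads of each library (percent of 5p plus 3p reads, axis not from 0), with Wilson 95% intervals. The Holstein libraries (blue) lie between 95.6 and 95.8%, and the Montbéliarde libraries (red) between 94.4 and 96.8%.

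Across the 11 libraries, the leukocyte miRNAs tended to be high in the same cows. Relations were computed on log2(normalized read count + 1) for the 10 pairs of these miRNAs and for each of them with the 5 cell type sums, and their permutation p-values were adjusted together over all 35. Pearson's r was above 0 for all 10 pairs, and 4 pairs had an adjusted p of at most 0.05. All values of a library share 1 scale factor. On shares of the library total in place of normalized read counts, 3 pairs passed, and *miR-142-5p* with *miR-155* did not (r = 0.70, permutation test, adjusted p = 0.0519).

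The highest coefficient was that of *miR-142-3p* with *miR-150* (r = 0.86, permutation p = 0.00119, adjusted p = 0.0208; rho = 0.75, permutation p = 0.0102, adjusted p = 0.179). For the arms of *miR-142*, r was 0.85 (permutation p = 0.00116, adjusted p = 0.0208) and rho 0.85 (permutation p = 0.00144, adjusted p = 0.0504). *miR-150* with *miR-155* gave r = 0.82 (permutation p = 0.00231, adjusted p = 0.0256) and rho = 0.65 (permutation p = 0.0326, adjusted p = 0.228). *miR-142-5p* with *miR-155* gave r = 0.76 (permutation p = 0.00293, adjusted p = 0.0256) and rho = 0.67 (permutation p = 0.0275, adjusted p = 0.228). No rank correlation thus passed the adjustment.

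These relations leaned on CNLX15 and CNLX21, the libraries farthest from the median of the miRNA on the horizontal axis. Without both, r was 0.59 for *miR-142-3p* with *miR-150*, 0.73 for the arms of *miR-142*, 0.41 for *miR-150* with *miR-155* and 0.47 for *miR-142-5p* with *miR-155*. Leaving out either library alone left 0 of the 10 pairs past the threshold. Within the 6 Montbéliarde libraries, r was 0.92, 0.83, 0.89 and 0.79 for the same pairs, with unadjusted exact permutation p = 0.0153, 0.0903, 0.0208 and 0.0528. With the breed means subtracted, all 4 pairs kept an adjusted p of at most 0.05. No coefficient was computed within the 5 Holstein libraries, since 6 libraries were taken as the fewest for one.

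The pairs with *miR-223* had r between 0.58 and 0.65 and adjusted p-values between 0.101 and 0.158 (permutation tests). Without CNLX7 and CNLX15, r was between 0.21 and 0.38, so that these relations rested on those libraries. Its rho with *miR-155* was 0.11 (permutation p = 0.752).

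**Figure D4:**
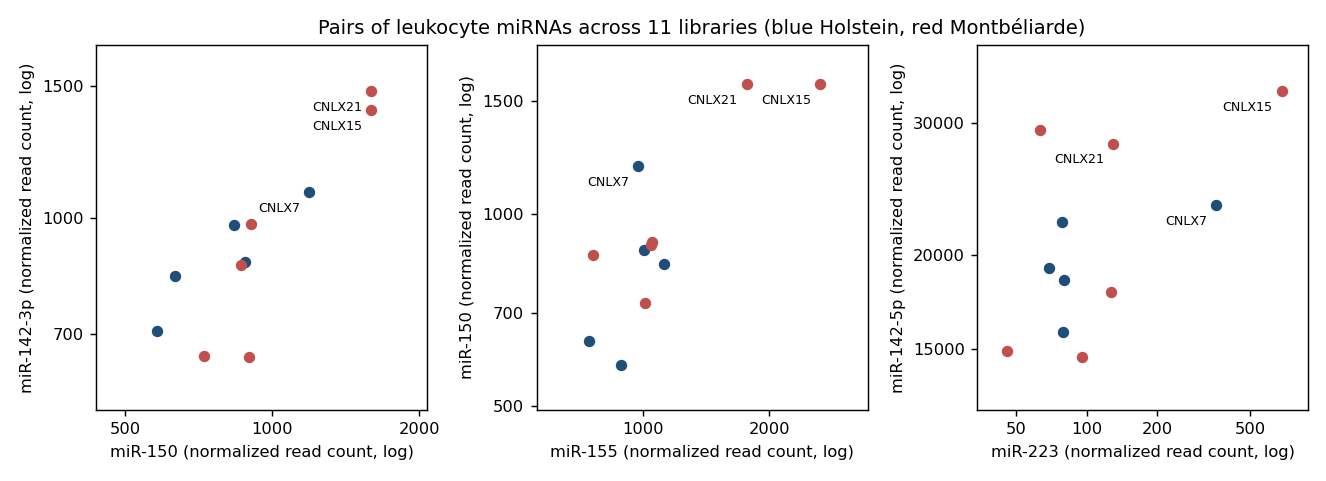
Normalized read counts (log axes) of 3 pairs of leukocyte miRNAs in 5 Holstein (blue) and 6 Montbéliarde (red) libraries. CNLX15 and CNLX21 hold the upper right of the pairs of *miR-150* with *miR-142-3p* and *miR-155*, and CNLX15 and CNLX7 stand apart in *miR-223*.

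None of the 25 relations with the cell type sums passed the adjustment. The nearest were those of *miR-155* with the epithelial sum (r = -0.77, permutation p = 0.00847, adjusted p = 0.0565; rho = -0.50, permutation p = 0.121) and of *miR-150* with the same sum (r = -0.71, permutation p = 0.0146, adjusted p = 0.0568; rho = -0.40, permutation p = 0.225). Without CNLX15 and CNLX21 these coefficients were -0.07 and -0.10. For *miR-155* with the stromal sum, 99.3% of which was *miR-143*, r was 0.71 (permutation p = 0.0133, adjusted p = 0.0568; rho = 0.53, permutation p = 0.0992). It was 0.55 without CNLX1 and CNLX15 and 0.47 without CNLX15 alone. The part of epithelial and stromal content in the levels of the leukocyte miRNAs was not tested.

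The 3 miRNAs of red blood cells, *miR-486*, *miR-451* and *miR-144*, were read in every library, and their sum was between 23429 and 57421. On average 93.3% of it was *miR-486*. It was highest in CNLX17, at 57421, where the 5 leukocyte miRNAs summed to 20379, and it was 27665 in CNLX15, where they summed to 39422. Some other libraries also ran opposite, such as CNLX21 (red blood cell sum 23429, leukocyte sum 33142) and CNLX23 (38272 and 17229). Others did not, since both sums were high in CNLX13 (44306 and 32396) and low in CNLX19 (26145 and 17523). The r of the red blood cell sum was between -0.55 and -0.18 with the 5 leukocyte miRNAs, with a lowest adjusted p of 0.204 (permutation tests). A sum of 2 endothelial miRNAs, the arms of *miR-126*, was between 239684 and 330168. That of 5 muscle miRNAs was between 519 and 1849, with the highest value in CNLX3.

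Patterns most like each leukocyte miRNA were sought by Pearson's r on log2(normalized read count + 1) over the 11 libraries, among 338 other known miRNAs with a mean of at least 10. These are given as a description, being the highest of many. For *miR-142-5p* they were *miR-342* (r = 0.87) and *miR-146a* (r = 0.84), a miRNA that is induced by NF-kB and acts on the Toll-like receptor pathway. For *miR-142-3p* they were *miR-154b* (r = 0.88) and again *miR-146a* (r = 0.85). *miR-150* was most like *miR-222* (r = 0.86) and *miR-147* (r = 0.86), which macrophages induce after Toll-like receptor stimulation. *miR-155* was followed closely by *miR-222* (r = 0.98) and *miR-181c* (r = 0.94). Without CNLX15 these 8 coefficients stayed between 0.78 and 0.95. For *miR-223* the nearest were *miR-193b* (r = 0.82) and *miR-7863* (r = 0.80), and these fell to 0.52 and 0.49 without CNLX15.

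Of a list of 23 other miRNAs known from leukocytes or inflammation, 22 were in the table and tested. With edgeR, 0 were higher and 0 lower in Montbéliarde after adjustment, beside 0.364% called of all tested miRNAs. For 2 the unadjusted p was 0.05 or less, beside 14.2% of all. By DESeq2, 1 passed, *miR-146b*, beside 4.33% of all. The log2 fold change was above 0 for 11 of the 22, beside 52.4% of all, with a median of 0.07. The lowest edgeR adjusted p was that of *miR-146b*, which like *miR-146a* is induced in inflammation, with a log2 fold change of 1.58 (standard error 0.53, adjusted p = 0.209). Its normalized read counts ran from 2420 to 39448, the latter in CNLX15. Without CNLX15 its log2 fold change was 1.07 (edgeR adjusted p = 0.286). *miR-338* was the other at this unadjusted level, with a log2 fold change of -0.80 (edgeR adjusted p = 0.309). Its counts were identical to those of *miR-3065* in every library, so that the reads of this pair cannot be told apart.

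The most abundant of the list did not separate the breeds either. *miR-21-5p*, found in many activated and proliferating cells, averaged 238563 ± 87310 (SD, n = 6) in Montbéliarde, against 239401 ± 18627 (SD, n = 5) for Holstein (edgeR adjusted p = 0.997). *miR-181a*, which tunes T cell receptor signalling in thymocytes, averaged 194639 ± 45104 against 158208 ± 18712 (edgeR adjusted p = 0.478). *miR-125b* averaged 15680 ± 5497 against 11412 ± 1885 (edgeR adjusted p = 0.358).

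**Figure D5:**
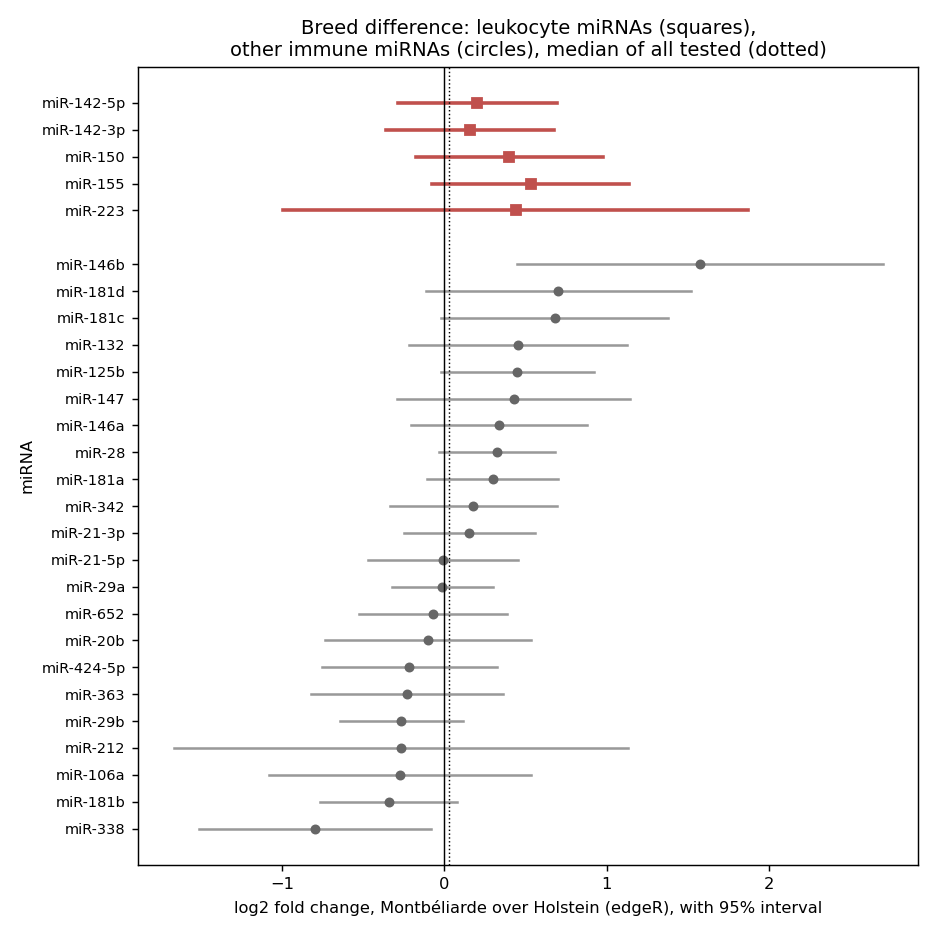
Log2 fold change of Montbéliarde over Holstein from edgeR, with 95% intervals, for the 5 leukocyte miRNAs (red squares) and 22 other immune miRNAs (grey circles), with 0 (solid) and the median of all tested miRNAs (dotted). The interval of each leukocyte miRNA includes 0, and that of *miR-223* is the widest of the 5.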

How the data were processed

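Small RNA libraries of 11 mammary biopsies were analysed, grouped by the breed in the sample records, with 1 library per cow. The authors trimmed adaptors, filtered reads by size, used miRDeep2 and ncPRO-seq with miRBase and a bovine assembly to quantify them, and deposited raw read counts per mature miRNA. They also deposited a signal per library, the normalized read count (raw counts divided by DESeq2 1.18.1 size factors), which is used here for levels. The columns of the authors' own comparison, a deposited log2 fold change and p-values, were not used.

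Raw counts were fitted with edgeR 4.0.16 in R 4.3.3 (TMM, robust glmQLFit, glmQLFTest), keeping the 550 miRNAs whose counts came to 10 or more in all, with Benjamini-Hochberg adjustment and a threshold of 0.05. DESeq2 1.42.0, limma-voom (limma 3.58.1), other scalings and filters, and each library left out were alternatives. Single measures had exact permutation tests over the cows, and correlations 100000 permutations (exact within Montbéliarde). On simulated counts for this breed comparison over 550 miRNAs, edgeR recovered 46.7% of 200 miRNAs changed by 1 on the log2 scale and 83.1% of those changed by 2. The simulation changed many more miRNAs than were called in the data, drew each independently and added no outlying library. Recovery in the real comparison may therefore be lower. Totals of 6087865 to 16808976 counted reads leave a small counting error for all but *miR-223*. PCR copies were not told apart. Same-breed libraries differed by at least 219 times the chi-square of sampling noise per degree of freedom, so none was a copy of another.

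The 5 miRNAs, the lists and the rule for named miRNAs (these 5, the leading miRNAs of each list, and the 2 known miRNAs most like each of the 5) were chosen with earlier results of these data known. The list entries *miR-203*, *miR-206* and *miR-9-5p* matched no row by that name. Mature sequences were not used here.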

Additional observations from a re-analysis of the deposited data

Results flagged for a closer look

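*miR-223* was flagged in both breeds, because 1 library lay far from the others of its breed: CNLX7 in Holstein, at a normalized read count of 357, and CNLX15 in Montbéliarde, at 680. The gap to the next library was 96.3% and 86.7% of the whole range of the breed. The summed skeletal muscle miRNAs were flagged in the Holstein library CNLX3, at 1849, a sum of which *miR-133a* makes up most. Of 22 groups of values examined in this way, 3 were flagged, beside about 1.1 at a rate of 1 in 20. That rate holds for independent values with a normal distribution. Here the gaps were taken on normalized read counts without logarithms, and the groups come from the same libraries. The 3 are therefore not read as an excess.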

How the results depend on the processing

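The number of leukocyte miRNAs past the threshold stayed at 0 under all alternatives, and the sign of their log2 fold change was kept in all but that of *miR-223*. With each library left out, the log2 fold change was between 0.12 and 0.35 for *miR-142-5p*, 0.04 and 0.31 for *miR-142-3p*, 0.29 and 0.59 for *miR-150*, 0.34 and 0.65 for *miR-155*, and -0.46 and 1.28 for *miR-223*, and between -0.17 and 0.12 for *miR-21-5p*. The number of all miRNAs past the threshold, 2, was 0 with DESeq2 size factors in edgeR, 1 with library totals only, 20 by the DESeq2 Wald test, 0 without CNLX7 and CNLX15, and between 0 and 6 with each library left out. For the other immune miRNAs the number was 1 by DESeq2 (*miR-146b*), and their median log2 fold change was -0.028 without CNLX7 and CNLX15. The cause was not tested.

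With each library left out, the mean log2 ratio was between 0.20 and 0.305 for *miR-155* to *miR-150*, and between -0.045 and 0.041 for *miR-150* to *miR-142-3p*. The difference in the 5p share of *miR-142* was between -0.15 and 0.32 percentage points. Of the pairs of leukocyte miRNAs, 4 passed in the correlation across all libraries, 3 on shares of the library total, 0 with Spearman's coefficient, 0 within Montbéliarde, 0 without CNLX7 and CNLX15, and between 0 and 5 with each library left out. Relations with cell type sums past the threshold numbered 1 on shares of the library total (*miR-155* with the epithelial sum), and between 0 and 1 with each library left out. No paired analysis was possible because the breeds share no replicate numbers. Depth limits *miR-223* most, with as few as 38 counts.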
